A study of Rattus norvegicus with 18 samples.

Results

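The insulin-like growth factor (IGF) axis was followed here through 10 transcripts, chosen by name from the 22081 genes listed in each of the 3 deposited expression tables: the ligand Igf1, its receptor Igf1r, the binding proteins Igfbp2, Igfbp3, Igfbp4, Igfbp5, Igfbp6 and Igfbp7, the binding protein protease Pappa and the protease inhibitor Stc1. Pappa was listed under its synonym Pappa1. RNA sequencing had been performed on lungs of 18 male F344 rats, 9 of them control rats given vehicle (saline with a detergent) and 9 rats given MWNT-7, a straight and rigid multiwalled carbon nanotube (MWCNT), at 0.5 mg/kg body weight. Both were instilled into the lung through the larynx every 4 weeks from 9 weeks of age, and 3 control and 3 MWCNT-treated rats were examined at each of 3 times: Year 0.5 (6 months), Year 1 and then Year 2. The RNA came from a small portion of the accessory lobe in which no tumor was found, and all rats of 1 time point had the same age. Each group therefore held 3 separate animals, and the comparisons asked how the lung transcriptome changed with repeated exposure at each time point and with time.

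IGF1 is a secreted growth factor that drives cell growth and survival through the receptor tyrosine kinase IGF1R, and in lung it is known to be made by macrophages and fibroblasts as well as reaching the tissue from the liver through the blood. Most IGF outside cells is held by high-affinity binding proteins, which lengthen its life and keep it from the receptor, until proteases cut them. PAPPA cuts IGFBP4 and IGFBP5, its action on IGFBP4 is helped by bound IGF, and stanniocalcins such as STC1 block PAPPA, so that ligand, receptor, binding proteins, protease and inhibitor together set how much free IGF reaches a cell.

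The 4 promoters below belong to the ligand and to the binding proteins whose transcripts moved in opposite directions, and are given so that they can be read beside the levels that follow. Each shows the 100 bases before the RefSeq start on rat assembly GRCr8, 5′ to 3′ on the strand of the gene: chr7:24172432-24172531 (forward strand) for Igf1, chr14:86277945-86278044 (reverse strand) for Igfbp3, chr10:84491371-84491470 (forward strand) for Igfbp4 and chr9:81914188-81914287 (reverse strand) for Igfbp5. Capitals mark a match, on either strand, to a TATA box (TATAAA) or its variant TATATA, or to the core of a GC box (GGGCGG).
Igf1: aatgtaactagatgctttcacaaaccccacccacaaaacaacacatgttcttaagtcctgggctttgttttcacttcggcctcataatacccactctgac
Igfbp3: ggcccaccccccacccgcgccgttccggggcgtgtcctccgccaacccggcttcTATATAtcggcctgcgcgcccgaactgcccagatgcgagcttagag
Igfbp4: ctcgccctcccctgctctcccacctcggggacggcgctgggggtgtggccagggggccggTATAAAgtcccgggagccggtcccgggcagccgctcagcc
Igfbp5: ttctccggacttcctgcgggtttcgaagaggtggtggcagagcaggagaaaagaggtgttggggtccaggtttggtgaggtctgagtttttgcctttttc
The 250 bases before the start were searched on both strands for these 3 motifs, and RefSeq promoters were found for 8 of the 10 transcripts, all but Pappa and Stc1. Igfbp4 held TATAAA, with its first base at position -40, a motif present in 12.9% of 33469 promoters of the same length. Igfbp3 held TATATA at -46, present in 5.45% of them. GGGCGG, present in 30.5%, was found in Igf1r, in Igfbp2 and, with 4 matches, in Igfbp7. Igf1, Igfbp5 and Igfbp6 held none of the 3 motifs in this window. The promoters also differed in base composition, from 46.8% GC in Igf1 and 51.6% in Igfbp5 to 71.6% in Igfbp3 and 79.6% in Igf1r, beside a median of 51.2% over all promoters. A match describes the letters only.

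Levels are given as deposited TPM (a share of each library's transcripts, scaled by transcript length and by the total of each library), and differences as log2 fold changes of MWCNT-treated over control rats from edgeR's quasi-likelihood test on the counts, scaled by the trimmed mean of M-values (TMM), with standard errors (SE) and false discovery rates (FDR) over all genes tested. A gene was called where the FDR was below 0.05 and the fold change was above 2, that is 1 on the log2 scale. The 2 scales differ, and the cause was not tested. With library size as the only scaling the median log2 fold change of all genes moved by -0.10, -0.13 and -0.17 in order of time. A small difference can thus be lower in TPM and near 0 in the test. All 10 transcripts passed the filter on low counts at every time point. Since whole tissue was sequenced, fewer cells of a type and less RNA per cell cannot be told apart.

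At Year 0.5, 4 of the 10 were called, Igf1 and Pappa higher and Igfbp2 and Igfbp3 lower, where 9.1% of 14315 genes tested were called, 6.07% as higher and 3.03% as lower. At Year 1 the called transcripts were 2, Igf1 higher and Igfbp3 lower, beside 10.2% of 14345 genes (6.13% higher, 4.09% lower). At Year 2 they were 5, Igf1, Igfbp4 and Pappa higher and Igfbp3 and Igfbp5 lower, beside 16.4% of 14361 genes (8.17% higher, 8.22% lower). By FDR alone, 7, 7 and 5 of the 10 differed, beside 38.8%, 41.2% and 49.2% of all genes. Of these, 3 were higher at each time point (all genes 20.2%, 21.6% and 25.2%) and 4, 4 and 2 were lower (all genes 18.6%, 19.6% and 24.0%). Igf1 and Igfbp3 were the members called at all 3 time points. Over the 10 transcripts the median log2 fold change was -0.28, -0.04 and -0.18, with all-gene medians of -0.02, 0.00 and -0.01.

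**Figure D1:**
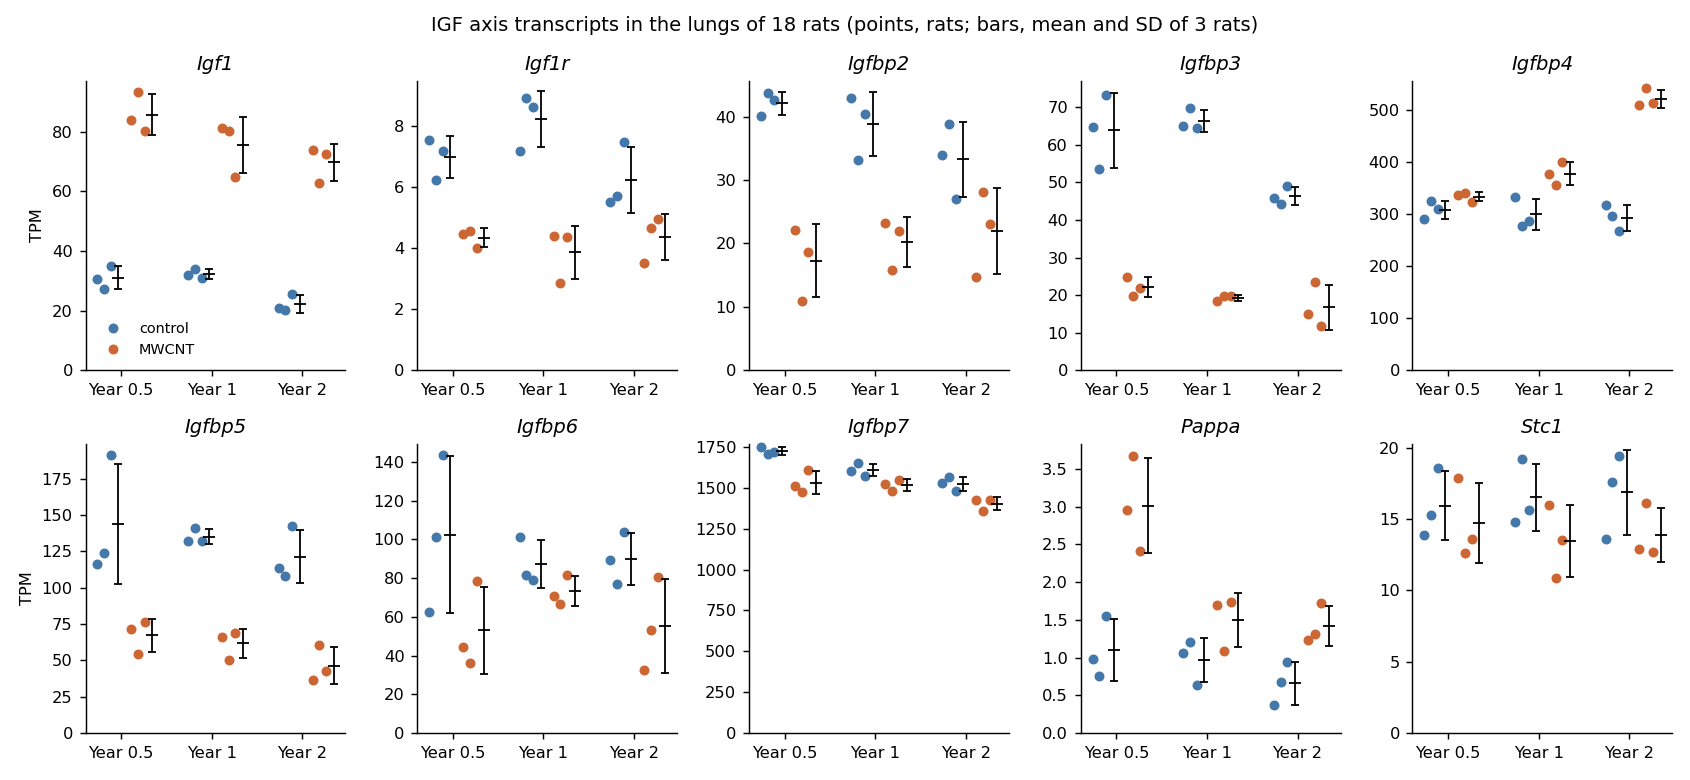
TPM (vertical axis, from 0) of the 10 transcripts at the 3 time points (horizontal axis). Points are rats, blue for control and orange for MWCNT, and black bars are the mean and SD of 3 rats. Igf1 lies above the controls and Igfbp3, Igfbp5, Igf1r and Igfbp7 below them at every time point, but Igfbp7 passed the test at none. The rise of Igfbp4 is largest at Year 2, and Igfbp6 and Stc1 overlap throughout.

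Igf1, the ligand (chromosome 7, 28412198 to 28486609, forward strand, on Rnor_6.0, the assembly of the files), was higher in every MWCNT-treated rat than in every control rat. Control levels were 30.7, 27.4 and 35.0 TPM at Year 0.5, 32.0, 33.9 and 30.8 TPM at Year 1, and 21.0, 20.1 and 25.5 TPM at Year 2. MWCNT-treated rats had 83.8, 93.3 and 80.1 TPM at Year 0.5, 81.4, 80.3 and 64.7 TPM at Year 1, and 74.0, 62.7 and 72.5 TPM at Year 2. The lowest treated rat of the study, at Year 2, was thus well above the highest control, at Year 0.5. Treated over control, Igf1 rose by 1.61 (SE 0.10, FDR 1.35e-05) at Year 0.5, 1.47 (SE 0.11, FDR 2.79e-05) at Year 1 and 1.87 (SE 0.11, FDR 2.8e-06) at Year 2, on the log2 scale, or 3.06-, 2.77- and 3.66-fold. In the order of group means, the 3 MWCNT groups (69.7, 75.5 and 85.8 TPM at Year 2, Year 1 and Year 0.5) overlapped their neighbours, and among controls Year 2 (22.2 TPM) lay apart below Year 0.5 and Year 1. The Year 2 controls were lower than Year 1 controls by a log2 difference of -0.51 (SE 0.12, FDR 0.0222) and lower than Year 0.5 controls by -0.48 (SE 0.12, FDR 0.0319), where 7.93% and 6.65% of 14843 genes passed the FDR alone. Both of these calls in control rats were lost when single rats were left out: the former without Year 1 rat 2 or 3 or Year 2 rat 1 or 2 (FDR 0.0514 to 0.107), the latter without Year 0.5 rat 1 or 3 or Year 2 rat 1 or 2 (FDR 0.0949 to 0.136).

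Treated over control, macrophage markers moved in the same direction as Igf1. All 8 on the list (Cd68, Marco, Mrc1, Itgax, Csf1r, Adgre1, Siglec1 and Fabp4) passed the FDR as higher at every time point, 6, 5 and 7 of them called. Over all genes 20.2%, 21.6% and 25.2% passed the FDR as higher and 18.6%, 19.6% and 24.0% as lower. By FDR and fold together 6.07%, 6.13% and 8.17% of all genes were called as higher. The summed level of the macrophage markers was 315.0 to 401 TPM in control rats and 983 to 1775 TPM in MWCNT-treated rats. Marco was at 0 in at least 1 control rat of Year 0.5 and of Year 2. Among treated rats this sum was 983 to 1171 TPM at Year 0.5 and 1641 to 1775 TPM at Year 2. Between those 2 groups the log2 difference of Igf1 was -0.22 (SE 0.11, FDR 0.236). All 6 alveolar type 2 markers also passed the FDR as higher than in controls at each time point. Fibroblast markers did not move as one: of the 7 measured, 3, 1 and 3 were higher and 3 lower at each time point, with sums of 972 to 1859 TPM in control and 968 to 1576 TPM in treated rats. The part of these cells in the Igf1 level was not tested.

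Igf1r, the receptor that carries the IGF1 signal (chromosome 1, 128924966 to 129206516, forward strand), was low in all lungs and lower in treated rats. Control rats had 7.53, 6.22 and 7.19 TPM at Year 0.5, 7.18, 8.90 and 8.62 TPM at Year 1 and 5.50, 5.70 and 7.46 TPM at Year 2. Treated rats had 4.46, 4.57 and 3.99 TPM at Year 0.5, 4.38, 2.86 and 4.36 TPM at Year 1 and 3.52, 4.65 and 4.94 TPM at Year 2. The groups did not overlap at any time point, as was true of 57.7%, 61.7% and 63.8% of all genes tested. The log2 fold change was -0.54 (SE 0.13, FDR 0.0102) at Year 0.5 and -0.87 (SE 0.16, FDR 0.00242) at Year 1, while the Year 2 value of -0.29 (SE 0.17, FDR 0.176) missed the threshold. With library size as the only scaling the Year 2 value was -0.46 (FDR 0.0492). Igf1r was called at none of the time points by FDR and fold together.

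Of the 6 binding proteins, Igfbp2, Igfbp3 and Igfbp5 were lower in treated rats at 1 or more time points, Igfbp4 was higher, and Igfbp6 and Igfbp7 did not pass the test. Igfbp3, the main carrier of IGF1 in blood (chromosome 14, 87457647 to 87465374, reverse strand), fell at every time point. Control rats had 64.7, 53.5 and 73.4 TPM at Year 0.5, 64.9, 69.7 and 64.6 TPM at Year 1 and 45.9, 44.3 and 49.1 TPM at Year 2. Treated rats had 24.9, 19.7 and 21.8 TPM at Year 0.5, 18.4, 19.7 and 19.7 TPM at Year 1 and 15.0, 23.5 and 11.8 TPM at Year 2. No treated rat reached the lowest control, and among treated rats the spread was widest at Year 2. In the test the log2 fold change was -1.39 (SE 0.12, FDR 6.59e-05), -1.55 (SE 0.08, FDR 4.15e-06) and -1.25 (SE 0.20, FDR 0.000933) in order of time. Control means were 63.9, 66.4 and 46.4 TPM, and the Year 2 controls overlapped neither those of Year 0.5 nor those of Year 1. Neither log2 difference passed the test, -0.45 (SE 0.16, FDR 0.101) from Year 0.5 controls and -0.49 (SE 0.16, FDR 0.0716) from Year 1 controls.

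Igfbp5, a binding protein that also attaches to extracellular matrix (chromosome 9, 80150211 to 80167033, reverse strand), was lower at every time point. Control rats had 116, 124 and 191 TPM at Year 0.5, 132, 141 and 132 TPM at Year 1 and 113, 108 and 143 TPM at Year 2. Treated rats had 71.2, 54.4 and 76.2 TPM, then 66.0, 50.4 and 68.8 TPM, then 36.1, 60.3 and 42.7 TPM. The groups did not overlap, and the highest control value, in Year 0.5 rat 3, stood apart from the rest of its group. In edgeR the log2 fold change was -0.95 (SE 0.19, FDR 0.00382) at Year 0.5, -0.90 (SE 0.10, FDR 0.000149) at Year 1 and -1.17 (SE 0.17, FDR 0.000457) at Year 2, so that the change was on either side of 2-fold and was called at Year 2. It was also past 2-fold with library size as the only scaling at Year 0.5 (-1.06) and Year 1 (-1.03), and at Year 0.5 without control rat 1, control rat 2 or MWCNT rat 3 (-1.03 to -1.09).

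Igfbp2, a binding protein abundant in fetal tissues (chromosome 9, 80118029 to 80144789, forward strand), lies 5421 bases from Igfbp5, the pair facing each other with their 3′ ends. Control rats had 40.1, 43.7 and 42.6 TPM at Year 0.5, 42.9, 33.2 and 40.4 TPM at Year 1 and 34.0, 38.8 and 27.0 TPM at Year 2. Treated rats had 22.2, 10.9 and 18.7 TPM, then 23.2, 15.8 and 21.9 TPM, then 14.7, 28.1 and 23.0 TPM. The groups were apart at Year 0.5 and Year 1 and overlapped at Year 2. The log2 fold change was -1.16 (SE 0.21, FDR 0.00248) at Year 0.5 and -0.71 (SE 0.15, FDR 0.00508) at Year 1, while the Year 2 value was -0.39 (SE 0.22, FDR 0.164). It passed at Year 2 in both limma fits on TPM (-0.61 and -0.63, FDR 0.0462 and 0.0475), and ranged from -0.60 to -0.18 when 1 rat was left out. Without MWCNT rat 2 the Year 0.5 value was -0.90, below 2-fold. In the model of all 18 rats the effect at Year 2 differed from that at Year 0.5 by 0.78 on the log2 scale, which did not pass the FDR (FDR 0.283).

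Igfbp4 (chromosome 10, 86950557 to 86962578, forward strand), the binding protein that PAPPA cuts, was the second most abundant of the 10 and rose. Control rats had 291, 325 and 309 TPM at Year 0.5, 333, 277 and 287 TPM at Year 1 and 316.5, 296 and 266.5 TPM at Year 2. Treated rats had 337, 339.8 and 323 TPM at Year 0.5, 377, 356 and 400.3 TPM at Year 1 and 509, 542 and 514 TPM at Year 2. The groups overlapped at Year 0.5, lay apart at Year 1 and were far apart at Year 2. Igfbp4 rose by a log2 value of 0.26 (SE 0.07, FDR 0.0157) at Year 0.5, 0.57 (SE 0.10, FDR 0.00171) at Year 1 and 1.04 (SE 0.09, FDR 2.68e-05) at Year 2. The Year 0.5 difference missed the FDR threshold with library size as the only scaling (0.15, FDR 0.0912) and in both limma fits (0.11, FDR 0.151 and 0.153). The threshold was also missed without control rat 1, MWCNT rat 1 or MWCNT rat 2 (FDR 0.0524 to 0.0647). At Year 2 the change fell below 2-fold with library size as the only scaling (0.87), in both limma fits (0.83) and without control rat 3 (0.97).

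The rise of Igfbp4 with time was the one difference between time points that passed the test of interaction among the 10. Its MWCNT effect was larger at Year 2 than at Year 0.5 by 0.80 on the log2 scale (SE 0.12, FDR 0.00636), where 1.31% of 14843 genes passed the FDR. The difference between Year 2 and Year 1 was 0.49 (SE 0.12) and missed the threshold in edgeR (FDR 0.0672). In MWCNT-treated rats themselves, Igfbp4 at Year 2 was above Year 0.5 by 0.73 (SE 0.09, FDR 6.01e-05) and above Year 1 by 0.49 (SE 0.09, FDR 0.00369), with 13.5% and 5.94% of genes passing the FDR. Control groups, with means of 309, 299 and 293 TPM, overlapped. Macrophage marker sums were also highest at Year 2 among treated rats, 983 to 1171 TPM at Year 0.5, 1133 to 1379 TPM at Year 1 and 1641 to 1775 TPM at Year 2, and their part in the Igfbp4 level was not tested.

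Igfbp6, which prefers IGF2 as its ligand (chromosome 7, 143749221 to 143754054, forward strand), varied widely among rats of 1 group. Control rats had 62.5, 101 and 144 TPM at Year 0.5, 101, 81.5 and 78.8 TPM at Year 1 and 89.2, 77.0 and 104 TPM at Year 2. Treated rats had 44.5, 35.9 and 78.7 TPM, then 70.9, 66.8 and 81.8 TPM, then 32.4, 53.0 and 80.7 TPM. The groups overlapped at every time point. Its log2 fold change was -0.82 (SE 0.33, FDR 0.0783), -0.02 (SE 0.12, FDR 0.907) and -0.49 (SE 0.26, FDR 0.144). The call depended on the rats and on the fit. The Igfbp6 difference passed the FDR at Year 0.5 without control rat 1 (-1.08, FDR 0.0323) or MWCNT rat 3 (-1.18, FDR 0.0205), and at Year 2 without MWCNT rat 3 (-0.85, FDR 0.00989). With all rats kept, it passed at Year 0.5 in the model of all 18 rats (-0.81, FDR 0.0459) and with the replicate block (-0.81, FDR 0.00798), and at Year 2 in both limma fits (-0.77 and -0.79, FDR 0.0445 and 0.0458).

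Igfbp7 (chromosome 14, 33010300 to 33070190, forward strand), a related protein with low affinity for IGF that is abundant in vessels, was by far the most abundant of the 10. Control rats had 1751, 1708 and 1719 TPM at Year 0.5, 1604, 1650.2 and 1574 TPM at Year 1 and 1531, 1565 and 1482 TPM at Year 2. Treated rats had 1514, 1475 and 1609.8 TPM, then 1524, 1482 and 1550.2 TPM, then 1428, 1356 and 1428 TPM. In TPM every treated rat was below the controls of its time point, whereas the log2 fold change in the test was -0.03 (SE 0.06, FDR 0.739), 0.15 (SE 0.07, FDR 0.122) and 0.10 (SE 0.08, FDR 0.33). The direction at Year 2 depended on the scaling, since it was -0.08 with library size alone. At Year 1 Igfbp7 passed the FDR as higher in the model of all 18 rats (0.14, FDR 0.0494) and was at -0.08 in both limma fits (FDR 0.276 and 0.268). On the TPM scale 40.7%, 46.8% and 45.7% of all genes lay below the controls without overlap, against 17.0%, 15.0% and 18.1% above.

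**Figure D2:**
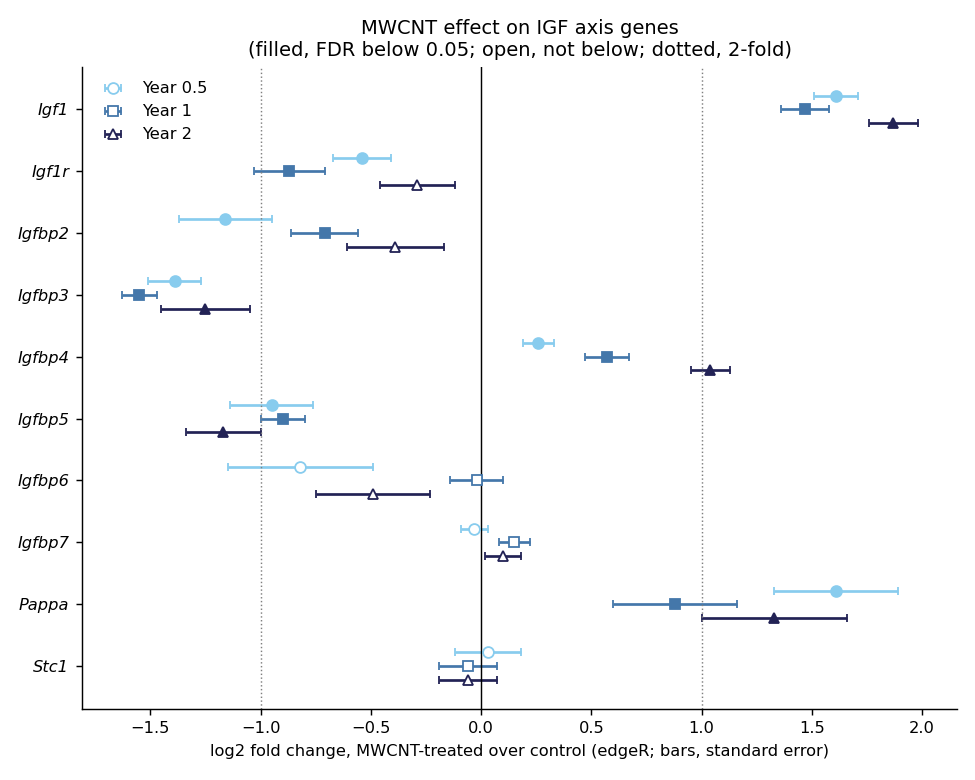
Log2 fold change of MWCNT-treated over control rats (horizontal axis, edgeR) for the 10 transcripts at Year 0.5 (circles), Year 1 (squares) and Year 2 (triangles), with bars for the standard error from the fit of 3 against 3 rats. Filled symbols had an FDR below 0.05 and dotted lines mark 2-fold. Igf1 (1.47 to 1.87) and Igfbp3 (-1.55 to -1.25) lie beyond 2-fold at each time point on opposite sides, and Igfbp7 and Stc1 lie near 0.

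Pappa, the metalloprotease that releases IGF from IGFBP4 (chromosome 5, 80920568 to 81150940, forward strand), was the scarcest of the 10, with 14 to 208 counts per rat, and its values carry the largest counting error. Control rats had 0.979, 0.754 and 1.55 TPM at Year 0.5, 1.06, 1.20 and 0.635 TPM at Year 1 and 0.368, 0.670 and 0.936 TPM at Year 2. Treated rats had 2.96, 3.67 and 2.41 TPM at Year 0.5, 1.69, 1.09 and 1.73 TPM at Year 1 and 1.23, 1.31 and 1.72 TPM at Year 2. The groups were apart at Year 0.5 and Year 2 and overlapped at Year 1. The log2 fold change was 1.61 (SE 0.28, FDR 0.00214) at Year 0.5, 0.88 (SE 0.28, FDR 0.0353) at Year 1 and 1.33 (SE 0.33, FDR 0.00894) at Year 2. The Year 1 difference was lost without control rat 1 or 3 or MWCNT rat 1 or 3 (0.63 to 0.97, FDR 0.052 to 0.115) and with library size as the only scaling (0.74). It was also lost in both limma fits (0.35 and 0.61, FDR 0.123 and 0.139). With the replicate number as a block, it was 0.89 with an FDR of 0.0523.

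Among treated rats the Pappa mean was 3.01 ± 0.631 TPM (SD, n = 3) at Year 0.5, 1.51 ± 0.357 TPM at Year 1 and 1.42 ± 0.264 TPM at Year 2, and the Year 0.5 group lay apart from the others. The log2 difference of Year 2 from Year 0.5 in treated rats was -1.01 (SE 0.30, FDR 0.0325), where 2.34% of 14843 genes were called. It was lost without Year 0.5 rat 1 or 2 or Year 2 rat 1 or 2 (-0.82 to -1.03, FDR 0.075 to 0.121). In control rats the same difference of Pappa was -0.73 (SE 0.34, FDR 0.197). The interaction of Year 2 against Year 0.5 was -0.27 (SE 0.45, FDR 0.851), so no difference between the treated and control courses was shown. Igfbp4, the substrate of PAPPA, was higher in treated rats of Year 2 than in those of Year 0.5, which were separate animals. In treated rats the TPM of Igfbp4 per TPM of Pappa was 92.6 to 134 at Year 0.5 and 299 to 415 at Year 2. In control rats it was 200.1 to 431 and 285 to 859 at those times.

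Stc1, which blocks PAPPA (chromosome 15, 50891127 to 50903162, forward strand), passed the test at none of the time points. Control rats had 13.9, 15.3 and 18.6 TPM, then 14.8, 19.2 and 15.6 TPM, then 13.6, 17.6 and 19.4 TPM. Treated rats had 17.9, 12.6 and 13.6 TPM, then 16.0, 10.9 and 13.5 TPM, then 12.9, 16.1 and 12.7 TPM. The 6 groups overlapped their neighbours in order, from 13.5 to 16.9 TPM in mean. Stc1 had log2 fold changes of 0.03 (SE 0.15, FDR 0.879), -0.06 (SE 0.13, FDR 0.723) and -0.06 (SE 0.13, FDR 0.731), and the sign at Year 0.5 was negative with library size alone (-0.07).

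Compared per length, the order of the transcripts differed between control and treated lungs. In all 3 control groups the order of mean TPM was Igfbp7, Igfbp4, Igfbp5, Igfbp6, Igfbp3, Igfbp2, Igf1, Stc1, Igf1r and Pappa. In all 3 MWCNT groups the mean of Igf1 came directly after Igfbp7 and Igfbp4, above Igfbp5, Igfbp6, Igfbp3 and Igfbp2. In treated rat 3 of Year 1, however, Igf1 (64.7 TPM) was below Igfbp6 (81.8 TPM) and Igfbp5 (68.8 TPM). Igfbp6 also exceeded Igf1 in treated rat 3 of Year 2. Igf1 and Igfbp6 lay within their spread at Year 1 (75.5 ± 9.36 and 73.2 ± 7.74 TPM, SD, n = 3) and at Year 2 (69.7 ± 6.18 and 55.4 ± 24.2 TPM). So did Igf1 and Igfbp5 at Year 1, where Igfbp5 had 61.7 ± 9.9 TPM. Likewise Igfbp5 and Igfbp6 in Year 0.5 controls (144 ± 41.3 and 103 ± 40.7 TPM) lay within theirs. The TPM of Igf1 per TPM of Igfbp3 in single rats was 0.454 to 0.518 over all 9 control rats and 2.67 to 6.17 over all 9 treated rats. Igfbp4 made up 40.7 to 52.8% of the summed TPM of Igfbp2 to Igfbp6 in control rats, and 62.3 to 73.8% at Year 0.5, 67.6 to 70.0% at Year 1 and 76.5 to 83.8% at Year 2 in treated rats. The share of Igfbp3 in that sum was 7.66 to 11.6% in control and 1.75 to 4.98% in treated rats. The sum itself was 574 to 760 TPM in control and 461 to 518 TPM in treated rats at Year 0.5, and 564 to 599 against 607 to 707 TPM at Year 2. These ratios follow from the levels above and were not tested separately.

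**Figure D3:**
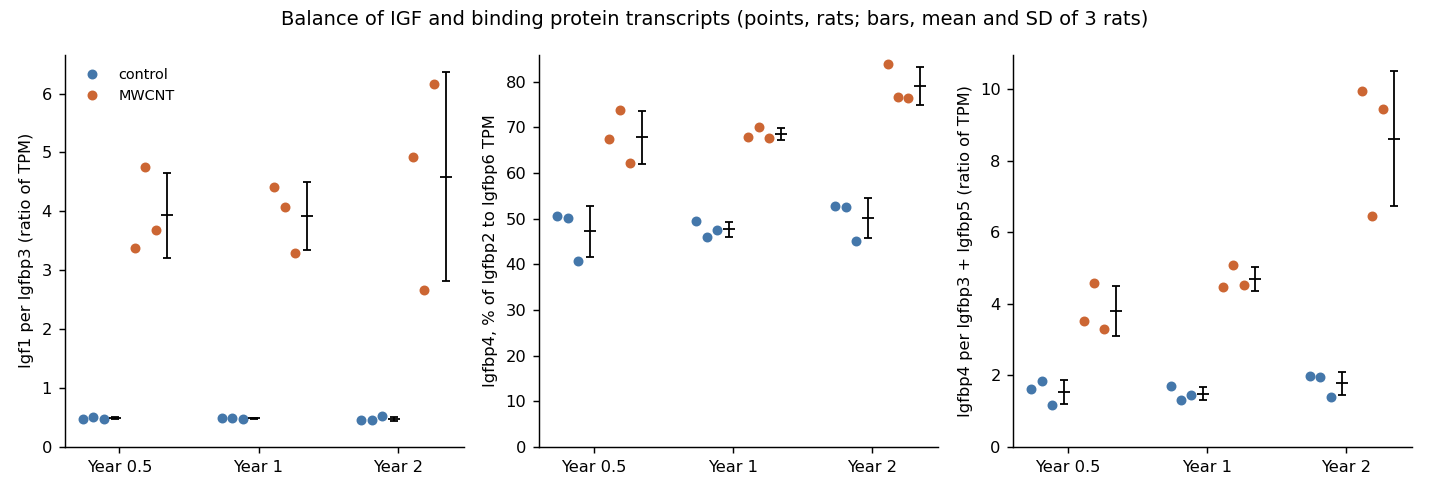
Ratios of TPM in single rats: Igf1 per Igfbp3, the percentage of the summed Igfbp2 to Igfbp6 that is Igfbp4, and Igfbp4 per sum of Igfbp3 and Igfbp5 (vertical axes, from 0) by time point. Points are rats, blue for control and orange for MWCNT, and bars are the mean and SD of 3 rats. Control rats lie between 0.454 and 0.518 in the first ratio, treated rats between 2.67 and 6.17.

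Endothelial, smooth muscle and alveolar type 1 markers were lower beside Igfbp3, Igfbp5, Igfbp2 and Igf1r. Markers are counted here by FDR alone. By this rule 18.6%, 19.6% and 24.0% of all genes were lower and 20.2%, 21.6% and 25.2% higher, in order of time. All 7 endothelial markers measured passed the FDR as lower at each time point, with sums of 2524 to 3318 TPM in control rats and of 1184 to 1708, 1080 to 1506 and 747 to 1139 TPM in treated rats in order of time. All 6 smooth muscle markers were lower, with sums of 1034 to 1711 TPM in control and 517 to 825 TPM in treated rats. Of the 6 alveolar type 1 markers, 6, 5 and 6 were lower, with sums of 5394 to 6358 TPM in control and 2421 to 3909 TPM in treated rats. All 6 alveolar type 2 markers were higher, with sums of 27306 to 36010 TPM in control and 50695 to 60269 TPM in treated rats. Airway epithelial markers were lower in 3, 4 and 3 of the 4 measured (18110 to 32846 TPM in control, 10480 to 15538 TPM in treated rats). Mesothelial markers overlapped in sum (389 to 591 TPM and 342 to 460.4 TPM), with 3 of 5 higher at Year 1 and 1 higher and 1 lower at Year 2. Heart muscle markers, which mark tissue from the heart or the pulmonary veins, ranged widely, from 72.9 to 669.9 TPM in control and 15.6 to 202 TPM in treated rats, with Myl2, Myh6 or Nppa at 0 in some rats, and 6 of 6 tested were lower at Year 0.5, 1 of 6 at Year 1 and 1 of 5 at Year 2. B and T cell markers summed to 248 to 634 TPM in control and 359 to 1701 TPM in treated rats, with 1 of 7 higher at each time point and 4, 0 and 4 lower. No marker of the endothelial, smooth muscle or alveolar lists was at 0 in any rat. The part of any of these cell types in the IGF axis levels was not tested.

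Among genes of the pathway outside the 10, 49 were listed and 43 passed the filter. By FDR alone, 10 were higher and 12 lower at Year 0.5, 8 and 12 at Year 1, and 13 and 10 at Year 2, of 43, beside 38.8%, 41.2% and 49.2% of all genes in either direction. By FDR and fold together, 0 were higher and 2 lower at Year 0.5, 0 and 3 at Year 1, and 1 and 4 at Year 2. Over all genes 9.1%, 10.2% and 16.4% were called by this rule, 6.07%, 6.13% and 8.17% as higher and 3.03%, 4.09% and 8.22% as lower. The median log2 fold change over the genes tested was 0.08, -0.08 and 0.15, and over all genes -0.02, 0.00 and -0.01.

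The second ligand, Igf2, moved opposite to Igf1. It had 4.05, 4.09 and 4.77 TPM in control rats and 1.35, 1.18 and 1.57 TPM in the treated ones at Year 0.5. It was called at each time point, by -1.51 (FDR 0.00018), -1.11 (FDR 0.00176) and -1.08 (FDR 0.000802) on the log2 scale. The Igf2 change was no longer past 2-fold at Year 1 without control rat 1, nor at Year 1 (-0.96) and Year 2 (-0.87) in limma on log2(TPM + 1). Igf2r, the receptor that clears IGF2 and also carries lysosomal enzymes, was higher, with log2 fold changes of 0.88 (FDR 6.9e-05), 0.59 (FDR 0.00356) and 1.00 (FDR 8.81e-06), none past 2-fold, although the Year 2 value passed it without control rat 3, MWCNT rat 2 or MWCNT rat 3 (1.02 to 1.03). At Year 2 it had 46.9, 50.4 and 53.8 TPM in control rats and 89.7, 84.6 and 85.0 TPM in treated rats, with no overlap. The insulin receptor Insr was higher at Year 0.5 (0.41, FDR 0.00954) and Year 2 (0.53, FDR 0.00306), and at Year 1 it was 0.09 (FDR 0.611). Both limma fits lost these Insr calls (0.25 to 0.31) and that of Igf2r at Year 1 (0.33 and 0.34). The insulin receptor-related receptor Insrr was lower, with log2 fold changes of -0.97 (FDR 0.00633), -1.67 (FDR 0.000267) and -1.10 (FDR 0.00789), called at Year 1 and Year 2, from control levels of 1.96 to 3.04 TPM. At Year 2 the Insrr change was below 2-fold without MWCNT rat 1 (-0.93) or 3 (-0.97) and in limma on log2(TPM + 1) (-0.85), and at Year 0.5 it was past 2-fold without control rat 2 (-1.01) or MWCNT rat 1 (-1.11). The insulin genes Ins1 and Ins2 and the binding protein gene Igfbp1, which lies 3861 bases from Igfbp3, had 0 counts in every rat (a count of 0 allows up to 3 per library, for counting error only), and Igfals, which completes the blood complex of IGF and IGFBP3, stood at 0.117 to 0.51 TPM and was not tested.

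Igfbpl1, an IGFBP-like protein, was lower at every time point, with log2 fold changes of -1.43 (FDR 0.0164), -1.31 (FDR 0.00437) and -2.09 (FDR 0.00109), the first of them lost without control rat 1 (-1.19, FDR 0.0764). Stc2, the second stanniocalcin, differed from Stc1: it had 11.7, 9.99 and 14.7 TPM in control and 7.56, 3.74 and 5.69 TPM in treated rats at Year 0.5, and 16.0, 13.9 and 15.3 TPM against 12.7, 9.69 and 14.2 TPM at Year 2. Its log2 fold change was -0.97 (FDR 0.0164), -0.73 (FDR 0.00859) and -0.09 (FDR 0.683), and within treated rats it rose from Year 0.5 to Year 2 by 1.21 (SE 0.22, FDR 0.00185), or by 0.98 without Year 0.5 rat 2. Control means of Stc2 were 12.1 TPM at Year 0.5 and 15.1 TPM at Year 2, and Stc2 did not pass the interaction of those time points. The Year 0.5 difference of Stc2 was past 2-fold without control rat 2 (-1.09) or MWCNT rat 1 (-1.23) and with library size alone (-1.07). Pappa2, a relative of Pappa that cuts IGFBP3 and IGFBP5, was lower at Year 1 (-0.72, FDR 0.0246) and Year 2 (-1.13, FDR 0.0147), the latter called. For Pappa2 the Year 2 change was below 2-fold without control rat 3 (-0.94) or MWCNT rat 1 (-0.84) and in limma on log2(TPM + 1) (-0.97), and the Year 1 call was lost without control rat 2 or 3 or MWCNT rat 3 (FDR 0.0513 to 0.0838) and in the model of all 18 rats (FDR 0.134). Adam12, a metalloprotease reported to cut IGFBP3 and IGFBP5, was called as higher at Year 2 (1.03, FDR 0.0102), with 1.63, 1.42 and 1.03 TPM in control and 2.11, 2.56 and 2.56 TPM in treated rats. The Adam12 change was at or below 2-fold without control rat 3, MWCNT rat 2 or MWCNT rat 3 (0.86 to 1.00), with library size as the only scaling (0.86) and in limma (0.54 and 0.80). None of the 24 receptor substrates and signalling genes was called at any time point in the comparison with controls, and 9, 8 and 8 of them passed the FDR alone, while of the 6 genes of growth hormone input 5, 3 and 4 passed it, beside the same all-gene shares of 38.8%, 41.2% and 49.2%. One of the former, the transcription factor Foxo3, was lower in Year 2 than in Year 1 controls (-1.15, FDR 0.0139), where 7.93% of all genes passed the FDR alone. This call was lost without Year 1 rat 2 or 3 or Year 2 rat 1 or 2 (FDR 0.0574 to 0.0894). Treated over control, Foxo3 passed the FDR as higher at Year 0.5 and at Year 2 (0.87 to 1.11 at Year 2 when 1 rat was left out). The Year 0.5 difference was lost in both limma fits (FDR 0.0716 and 0.0713) and without control rat 1 or 2 or MWCNT rat 2 or 3 (FDR 0.0704 to 0.0965).

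**Figure D4:**
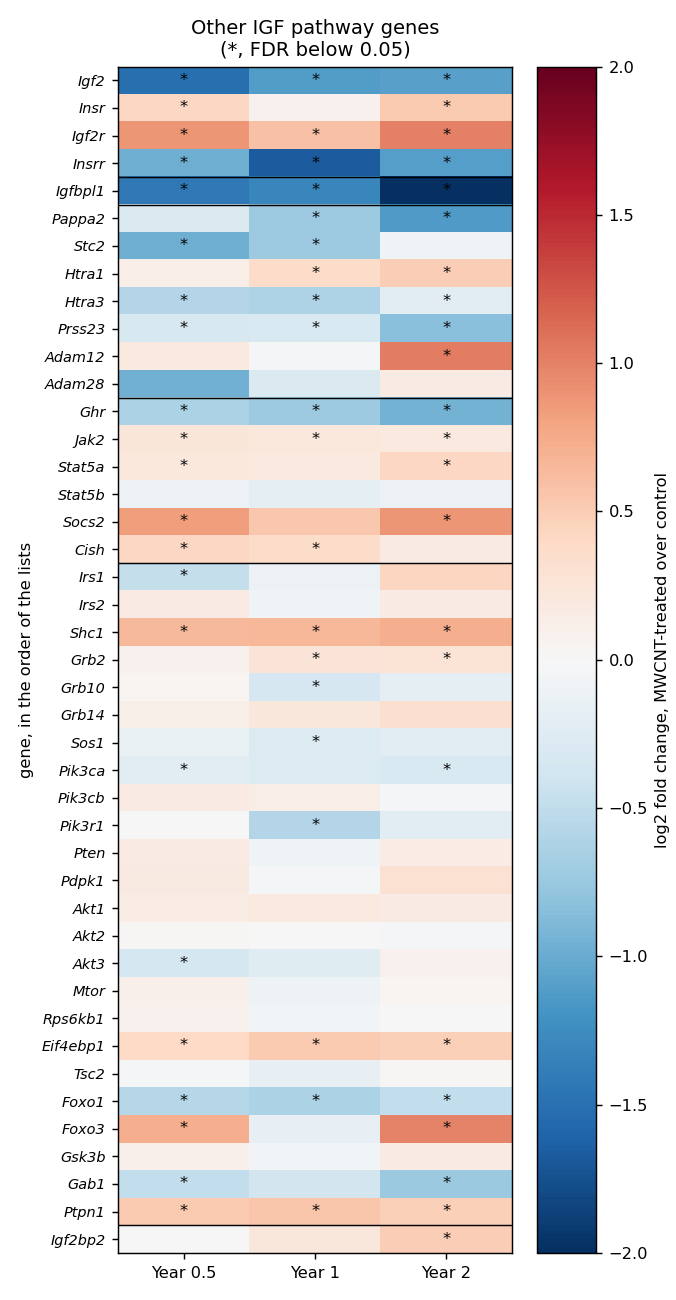
Log2 fold change of MWCNT-treated over control rats (colour, from -2 in blue to 2 in red) for the 43 other pathway genes tested, by time point, in blocks of ligands and receptors, binding proteins, proteases and stanniocalcins, growth hormone input, signalling and IGF2 mRNA binding proteins. Asterisks mark an FDR below 0.05. Igf2, Insrr and Igfbpl1 are lower in every column and Igf2r is higher, while the signalling genes stay within 2-fold.

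For each transcript called at some time point, the genes with the most similar course over the 18 rats were found by the root mean square (RMS) difference of centred log2 CPM, among 14842 genes. Igf1 was closest to Muc1, a membrane mucin of alveolar type 2 cells (0.12), to the tubulin Tuba1c (0.14) and to Qsox1 (0.15). Igfbp4 was closest to Engase (0.13), Comtd1 (0.14) and Ctsf, a lysosomal cathepsin (0.14). Igfbp5 was closest to Pygm (0.16), Kcnk3 (0.17) and Efemp1, a matrix protein (0.18). Igfbp3 was closest to Galnt15 (0.21), the BMP antagonist Chrdl1 (0.23) and the actin-severing protein Gsn (0.24), and Igfbp2 to Col8a2 (0.23), Rbm46 (0.25) and Pcsk6 (0.25). Pappa, with few counts, had no gene nearer than Slc16a14 (0.37), AABR07060833.1 (0.38) and Acsl4 (0.39). All these genes were measured in the same libraries as the transcript they resemble.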

How the data were processed

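Lung RNA of 18 rats in 6 groups of 3 separate animals was sequenced with a NEB Next Ultra II RNA kit. The authors mapped reads to Rnor_6.0 in CLC Genomics Workbench 22.0.2 and deposited whole-number gene counts and TPM values, used here, beside RPKM, CPM and their own fold changes and p-values, not used. Library totals were 13297643 to 17868851 counts in control rats and 14661589 to 21130757 in MWCNT-treated rats. The 10 transcripts, the 49 pathway genes and the 10 marker lists were chosen with earlier results of these data known. All 10 transcripts are named, with pathway ligands, receptors, binding proteins, stanniocalcins and genes called at 1 or more time points; Irs1, Jak2 and Foxo3 were named after their values were seen.

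Counts were tested with edgeR 4.0.16 (filterByExpr, minimum count 10, TMM, quasi-likelihood F-test, two-sided, Benjamini-Hochberg FDR over all genes) in the 6 rats of each time point; time and interaction were tested in 1 model of 18 rats. The fits were tested on simulated data. Alternatives were no filter, at least 10 counts in every rat, library size or RLE scaling, DESeq2 1.42.0, limma 3.58.1 on log2(TPM + 1) and log2(TPM + 0.1), 1 model of all 18 rats, the replicate block and leaving out each rat. TPM carries no depth. Each edgeR SE was the absolute log2 fold change divided by the square root of the F statistic of its fit, with 3 rats in each group. Col1a2, Pecam1 and Foxj1 of the marker lists were not matched by name.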

Additional observations from a re-analysis of the deposited data

Results flagged for a closer look

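The MWCNT effect on 2 transcripts differed between time points by a test of interaction in the model of all 18 rats. For Igfbp4 the log2 effect was larger at Year 2 than at Year 0.5 by 0.80 (SE 0.12, edgeR FDR 0.00636). The call held in each of the alternatives run, with 0.72 to 0.80 across the processing choices and 0.72 to 0.88 when 1 rat was left out. For Irs1, the docking protein that links the IGF1 and insulin receptors to PI3 kinase, it was larger by 0.92 (SE 0.20, edgeR FDR 0.0356). Irs1 had 3.64, 3.98 and 4.24 TPM in control and 2.60, 2.58 and 2.51 TPM in treated rats at Year 0.5, where it was lower (-0.48, edgeR FDR 0.0203, but 0.0509 to 0.0593 without control rat 3 or any 1 of the MWCNT rats), and 2.87, 2.66 and 3.36 TPM against 2.91, 4.12 and 3.27 TPM at Year 2, where the difference was 0.43 (edgeR FDR 0.0614). The Irs1 call was lost with library size as the only scaling (0.85), in limma (0.63), with only the rats of these time points (0.92), and without any 1 of 9 rats, 3 of them controls of Year 0.5. Among all 14843 genes 1.31% passed this test.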

How the results depend on the processing

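Of 126 counts of members under alternatives that kept all rats, 122 stayed within 1.5 times the value given. A count that was 0 and stayed 0 was scored as unchanged, here and where 1 rat was left out. Most of the time and interaction counts were 0, and in the interaction of Year 1 against Year 0.5, 0 of 14843 genes passed. Such counts could hardly move, so these scores do not measure the stability of the calls. The counts that moved were as follows. At Year 1, 4 were called by limma on log2(TPM + 0.1) in place of 2 (Igf1r and Igfbp5 added). At Year 2, 3 were called by limma on log2(TPM + 1) in place of 5 (Igfbp4 at 0.83 and Pappa at 0.55, below 2-fold). Igfbp4 was also below 2-fold with log2(TPM + 0.1) (0.83) and with library size alone (0.87). The Year 2 to Year 0.5 difference in treated rats had 0 called by limma on log2(TPM + 1) in place of 1 (Pappa). The interaction of Year 2 against Year 1 had 1 member by DESeq2 in place of 0. Leaving out 1 rat moved 4 of 108 counts by over 1.5 times, all for that same difference in treated rats, which ranged from 0 to 1. Members called then ranged from 3 to 6 at Year 0.5, 2 to 3 at Year 1 and 4 to 5 at Year 2. Signs turned for values that missed the threshold in the test reported: Stc1 at Year 0.5 (-0.07 with library size alone, -0.11 in both limma fits), Igfbp7 at Year 1 (-0.08 in both limma fits) and Year 2 (-0.08 with library size alone, -0.12 in both limma fits), and, without 1 rat, Stc1 (-0.13 to 0.15 at Year 0.5, -0.19 to 0.04 at Year 1, -0.17 to 0.04 at Year 2) and Igfbp6 at Year 1 (-0.10 to 0.12). Jak2 passed the FDR in edgeR at Year 1 and Year 2, but was at -0.03 and -0.02 in both limma fits and at 0.07 and 0.02 with library size alone, and its call was lost in 5 of 6 fits without 1 rat at each time, with the replicate block at both and at Year 2 in DESeq2 and without the filter. The cause was not tested. Replicate numbers did not pair the rats, since same-numbered control and MWCNT rats deviated with correlations of -0.15 to 0.11 and 4 of 9 control rats correlated best with their own number. With the replicate block, Igfbp6 at Year 0.5 passed the FDR (-0.81, FDR 0.00798) and Pappa at Year 1 did not, and no other call by FDR among the 10 changed. With 3 rats a group, a small change of Pappa, at 14 to 208 counts, could not be resolved.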
